A study of Homo sapiens with 4 samples.

Results

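The MYC and MAX network was followed as 10 genes chosen by symbol, namely MYC, MYCN, MAX, MXD1, MXD3, MXD4, MXI1, MNT, MGA and MLX. All 10 had a row among the 29833 genes of the expression table. A mean level of at least 1 FPKM over the 4 libraries was reached by 9 of them, and by 12750 genes in all, and only MYCN was below it. FPKM counts the reads of a gene relative to gene length and to the library's total.

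The proteins of this network bind DNA in pairs, and MAX is the partner that most of them share. MYC with MAX raises transcription of genes for ribosome assembly, metabolism and cell division, whereas the MXD proteins, MXI1, MNT and MGA compete for MAX and, through corepressors, lower transcription at many of the same sites. Both kinds of pair recognise the E-box, whose best-known form is CACGTG. MLX belongs to a parallel branch and pairs with MLXIP, MLXIPL, MNT and some MXD proteins. In B-cell precursors and leukemias derived from them, MYC is a main driver of growth, and MXD proteins are known to accumulate in cells that stop dividing or mature.

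RNA-seq was performed on Reh-6-MPR cells, a derivative of the established human B-ALL line Reh that was selected for resistance to 6-mercaptopurine (6-MP) by exposure to rising doses and then kept in drug-free medium before experiments. 6-MP is a thiopurine, a purine analogue used in leukemia therapy. For 48 h the cells received PBS as vehicle, 4 mM histidine, 1.0 μg/mL 6-MP, or the pair of agents at these doses (combined treatment). All 4 groups are of 1 resistant line with the genotype labelled WT, and each was sequenced as 1 library, so that the treatment and the library or dish cannot be told apart.

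The totals by which the reads were divided ranged from 12899122 reads (combined treatment) to 15486376 (histidine). The reads behind each value were recovered from the steps of the FPKM values. With 1 library per treatment there is no replicate check and no p-value. The 95% intervals below cover counting error only and compare libraries, not treatments. Differences are given as log2(FPKM + 1) of the first library minus that of the second, a scale on which changes of weakly expressed genes look smaller than they are, and a gene was counted as past the threshold where the difference was at least 1 in size. Of the B-lineage markers, 9 of 10 were in the table and all 9 were expressed, with CD79A, the signalling partner of the B-cell receptor, at 246.1 to 333.4 FPKM and DNTT, the polymerase of immature lymphocytes, at 496.9 to 625.0 FPKM. Their summed level was 1263 FPKM with vehicle, 1271 with histidine, 1327 with 6-MP and 1272 under combined treatment. Of 10 markers of other blood cells 5 were in the table, and their summed level was 31.4, 33.7, 29.7 and 61.6 FPKM in the same order. ITGAM, an integrin of myeloid cells, went from 3.14 FPKM with vehicle to 19.2 with the combined treatment, and MPO, a granule enzyme of myeloid cells, from 27.7 to 41.0. CD14, a monocyte marker, was at 4 reads or fewer in every library. LYZ, another marker of the list, had 8, 1, 3 and 31 reads with vehicle, histidine, 6-MP and the combined treatment. Both CD14 and LYZ were below the filter and are named after their values were seen. The part of these myeloid transcripts in the results below was not tested.

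MYC (chr8:127735434-127742951, GRCh38), the activating member, was the most abundant network gene in vehicle, at 70.4 FPKM (4623 reads), and stood at 64.9 FPKM with histidine and 65.0 FPKM with 6-MP. With the combined treatment it was at 17.7 FPKM (1047 reads), below the range of the other 3 libraries, which spanned 8.50% of their lowest value. The difference from vehicle was -1.93 on the log2 scale, or 0.251 times the vehicle level, with a log2 read ratio between -2.09 and -1.90. Against histidine it was -1.82 and against 6-MP also -1.82. Only 0.118% of the genes tested lay further down against vehicle. Each agent alone left MYC a little under vehicle, at -0.12 with histidine and -0.11 with 6-MP, and both counting intervals lay below 0. In bulk RNA such a difference cannot be told apart from a change in the mix of cells, since fewer cells with a transcript and less of it per cell give the same value.

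**Figure D1:**
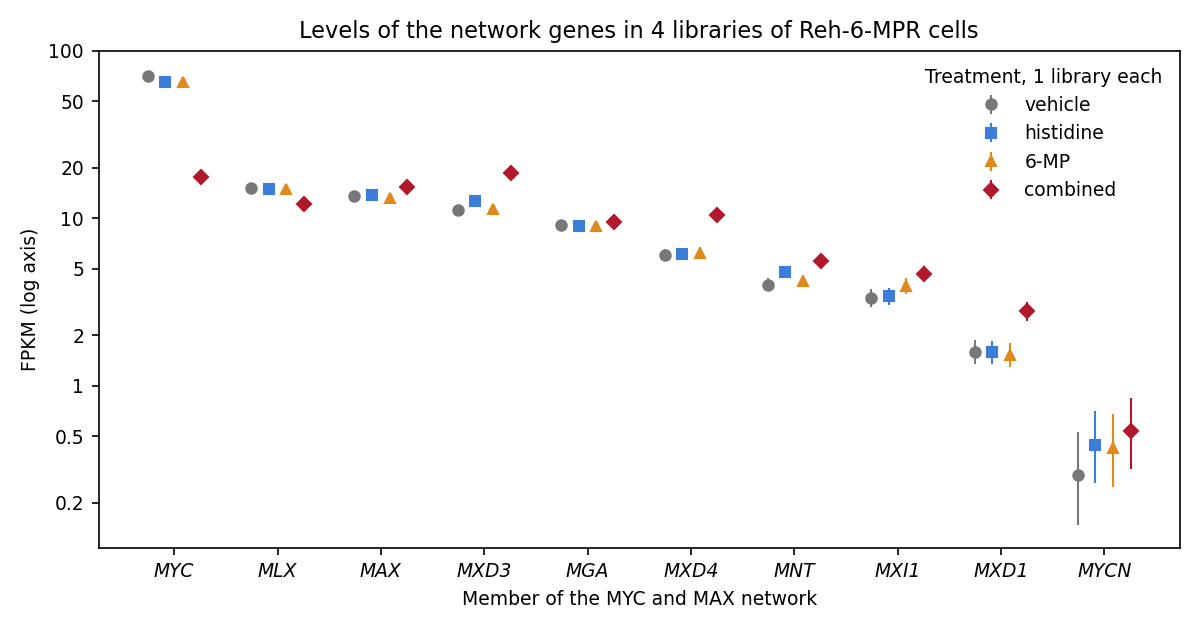
FPKM (log axis) of the 10 network genes in the 4 libraries, ordered by their level with vehicle, with 95% Poisson intervals on the reads that cover counting error only. MYC lies at 64.9 to 70.4 FPKM in 3 libraries and at 17.7 with the combined treatment, while MXD3, MXD4 and MXD1 are highest with the combined treatment.

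MYCN (chr2:15940550-15947007), the relative of MYC that is typical of neural precursors, was barely detected, with 11, 18, 17 and 18 reads, or 0.294, 0.444, 0.424 and 0.533 FPKM in the order vehicle, histidine, 6-MP and combined treatment. All its intervals against vehicle included 0, so that no difference was detectable at this depth. MAX (chr14:65006174-65102695), the common partner, was at 13.7 FPKM with vehicle, 13.8 with histidine, 13.2 with 6-MP and 15.3 under combined treatment. It was thus highest with the combined treatment, by 0.16, 0.14 and 0.20 on the log2 scale against vehicle, histidine and 6-MP, with counting intervals above 0, but these differences became -0.072, -0.046 and -0.021 when libraries were scaled by their median ratio. The median difference of all genes against vehicle was 0.13 as deposited and -0.069 after that scaling, so that MAX stayed near the median gene under both.

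MXD4 (chr4:2247432-2262109), an antagonist that pairs with MAX, was at 6.06 FPKM with vehicle, 6.09 with histidine and 6.19 with 6-MP, and at 10.4 FPKM under combined treatment. The 3 low values lay within 2.24% of each other, and the combined treatment was 1.72 times vehicle, a difference of 0.70 on the log2 scale (read ratio 0.63 to 0.94). It was the highest of the network differences against vehicle, yet below the threshold.

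MXD3 (chr5:177301461-177312757), which among the MXD proteins is the one known from dividing cells, was at 11.2, 12.6, 11.3 and 18.6 FPKM with vehicle, histidine, 6-MP and the combined treatment. The combined value exceeded all the others, by 0.68 on the log2 scale against vehicle, 0.52 against histidine and 0.67 against 6-MP. Histidine alone was also above vehicle, by 0.16, with an interval above 0. MXD1 (chr2:69897688-69942945), the founding antagonist and a gene of differentiating blood cells, was at 1.59, 1.59, 1.53 and 2.78 FPKM in the same order, on 145 to 228 reads. Its difference was 0.54 on the log2 scale against vehicle, 0.55 against histidine and 0.58 against 6-MP, and as a plain ratio it was 1.75 times vehicle, so that the low level hid part of the change on the scale with the pseudocount.

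MXI1 (chr10:110207605-110287365), a further MAX-binding antagonist, was at 3.35 FPKM with vehicle, 3.41 with histidine, 3.94 with 6-MP and 4.67 under combined treatment. The step with 6-MP alone was 0.18 on the log2 scale (read ratio 0.0062 to 0.47), and the combined treatment was above vehicle by 0.38 and above 6-MP by 0.20, the latter 0.0082 under median-ratio scaling. MNT (chr17:2384073-2401104), the antagonist that is present in most cell types, was at 4.01, 4.76, 4.21 and 5.52 FPKM. For MNT it was histidine alone that stood above vehicle, by 0.20 on the log2 scale (read ratio 0.079 to 0.42), and the combined treatment was above vehicle by 0.38 and above histidine by 0.18, the latter 0.0080 under median-ratio scaling. MGA (chr15:41621134-41773081), a very large protein that brings MAX to a Polycomb complex, was at 9.11, 8.99, 9.003 and 9.45 FPKM. Its differences from vehicle were -0.017 with histidine, -0.015 with 6-MP and 0.05 under combined treatment, all with intervals that included 0, and the last changed sign under both median-ratio scalings.

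MLX (chr17:42567072-42573239), the partner of the parallel branch, was at 15.1, 15.0, 14.9 and 12.2 FPKM with vehicle, histidine, 6-MP and the combined treatment. The first 3 values lay within 1.22% of each other, and the combined treatment was below each of them, by -0.29, -0.28 and -0.28 on the log2 scale, with intervals below 0. As deposited, MLX and MYC were the members whose intervals lay below 0 in the comparisons of the combined treatment, and under median-ratio scaling MGA joined them. Under that scaling over genes past the filter, MGA did so against vehicle only. MLXIP, the partner through which MLX senses glucose, was at 3.86, 4.37, 3.86 and 5.61 FPKM and was higher with the combined treatment, by 0.44 against vehicle. MLXIPL, the other such partner, had 3, 0, 5 and 46 reads in the same order, and MYCL, another MYC gene that is named here after its values were seen, had 14, 15, 25 and 3 reads. Neither reached the filter. TXNIP, the best-known target of MLX with MLXIP, was at 16.7, 15.2, 13.8 and 15.7 FPKM, and ARRDC4, its relative and fellow target, was at 0.877, 0.509, 0.433 and 0.592 FPKM. Both were highest with vehicle.

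**Figure D2:**
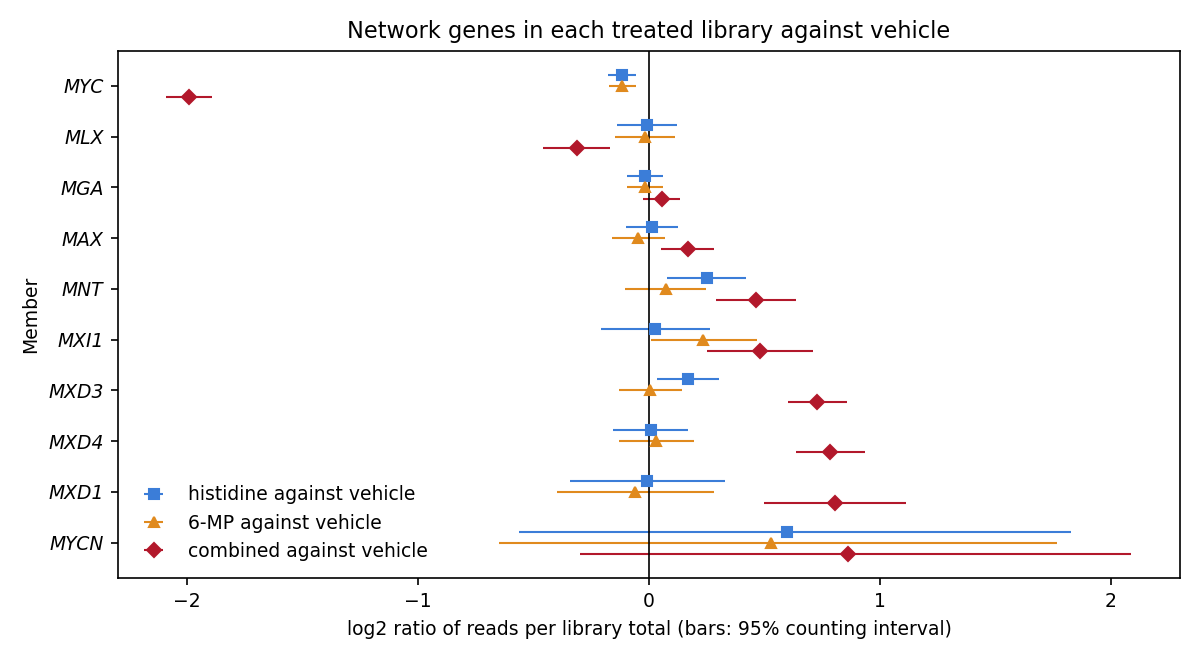
log2 ratio of reads per library total of each treated library against vehicle for the 10 network genes, with exact 95% counting intervals. With the combined treatment MYC lies near -1.99 and MLX near -0.31, and MXD1, MXD4 and MXD3 lie between 0.73 and 0.80, while most single-agent intervals cross 0.

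Counted together, 0 of the 9 genes tested passed the threshold with histidine against vehicle, where 1.33% of all genes did, and 0 with 6-MP against vehicle, where 1.18% did. In each comparison of the combined treatment 1 of 9 passed, which was MYC, beside 6.53% of all genes against vehicle, 5.55% against histidine and 6.02% against 6-MP. MYC was lower, and lower calls made up 1.51%, 1.4% and 1.2% of the genes tested in these comparisons. At a limit of 1.5-fold on the same scale, MYC, MXD3 and MXD4 passed against vehicle and against 6-MP, and MYC and MXD4 against histidine, beside 21.3%, 20.3% and 19.4% of all genes. With 9 genes, counts of 2 or 3 were not read as differing from that background.

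Of the 10 network genes, 6 had counting intervals above 0, 2 below 0 and 2 across 0 in each comparison of the combined treatment with the values as deposited. The share of all genes with intervals off 0 was not counted, so these interval counts were not read as a result about the network. Under median-ratio scaling 5, 4 and 3 intervals lay above 0 against vehicle, histidine and 6-MP, and 3 lay below 0 in each. Under that scaling over genes past the filter 5, 4 and 4 lay above 0 and 3, 2 and 2 below 0. MXD1, MXD3 and MXD4 were above 0 and MYC and MLX below 0 in all these counts. The median of the 9 differences was 0.38 against vehicle, where the median of all genes was 0.13. It was 0.18 beside 0.11 against histidine and 0.20 beside 0.13 against 6-MP. Against vehicle 6 of 9 lay above the median of all genes. The 3 comparisons share the combined library and are no independent repeats.

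Levels in one library were compared between genes per length, which rests on the gene lengths used in the deposited values. For MYC these were 4584 bases, while its GENCODE 29 exons cover 3001. In vehicle the order was MYC, MLX, MAX, MXD3, MGA, MXD4, MNT, MXI1, MXD1 and MYCN, and it was the same with histidine and with 6-MP. The intervals of MLX and MAX overlapped in vehicle, as did those of MNT and MXI1. With the combined treatment MXD3 came first at 18.6 FPKM and MYC second at 17.7 FPKM, with overlapping intervals, followed by MAX, MLX, MXD4, MGA, MNT, MXI1, MXD1 and MYCN. There the intervals of MXD4 and MGA overlapped, and those of MNT and MXI1.

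The summed level of the 6 MAX-binding antagonists MXD1, MXI1, MXD3, MXD4, MNT and MGA was 35.3 FPKM with vehicle, 37.5 with histidine, 36.2 with 6-MP and 51.5 under combined treatment. Set against MYC, this sum was 0.502, 0.577, 0.556 and 2.91 times the MYC level. In the first 3 libraries the MYC level thus exceeded that of the antagonists together, and with the combined treatment the order was turned. MYC made up 52.2%, 49.3%, 50.1% and 18.2% of the summed FPKM of the 10 genes, and the ratio of MYC to MAX was 5.16, 4.72, 4.92 and 1.16. These ratios are taken within a library, so that a scaling of the whole library does not alter them. They describe transcripts and not proteins.

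Whether the agents together did more than the sum of each alone was described by the departure, that is the log2 difference that 6-MP made in the presence of histidine less the one it made without it. For MYC it was -1.70, and on recovered reads it was -1.76 with an interval from -1.87 to -1.65. MXD4 departed by 0.66, MXD1 by 0.59 and MXD3 by 0.52, and their intervals also excluded 0, as did those of MLX at -0.27 and MAX at 0.19. Under median-ratio scaling the departure of MAX was 0.0048, while that of MYC was -1.89, that of MXD4 0.48, that of MXD1 0.45, that of MXD3 0.33 and that of MLX -0.45. For MXI1 at 0.18, MNT at 0.12, MGA at 0.08 and MYCN at -0.05 the intervals included 0, so that no departure was detectable at this depth. The interval of MYCN ran from -1.71 to 1.18, so additivity cannot be read from it. MXI1 and MNT are also the antagonists for which 1 agent alone stood above vehicle with an interval above 0, beside MXD3.

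Several members share ground with other genes, and whether strand was used in counting is not given in the sources used here, although the kit keeps strand. MXD3 overlaps PRELID1 on the opposite strand, a mitochondrial lipid carrier, which had 542, 650, 725 and 384 reads with vehicle, histidine, 6-MP and the combined treatment, and it shares its strand with RAB24, at 27 to 50 reads. MXD1 overlaps the splicing factor gene SNRNP27 on the same strand, at 436, 419, 488 and 524 reads. MLX overlaps PSMC3IP, a gene of meiotic recombination, on the opposite strand. PSMC3IP was at 340, 395, 345 and 628 reads, so that it was higher with the combined treatment while MLX was lower. FNTB, a farnesyltransferase subunit gene opposite MAX, stayed between 61 and 69 reads. The noncoding or unnamed genes opposite MYC, MYCN, MXI1, MGA and MAX, among them CASC11, MYCNOS and MIR4706, had 17 reads or fewer in every library. How reads in the shared stretches were assigned was not tested.

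The E-box CACGTG reads the same on both strands. It was searched in RefSeq windows of 300 bases, from 250 before to 50 after each gene start (GRCh38.p14). A window was at hand for 9 members, and 3 of them held the motif, namely MXD4, MNT and MLX, while 7.26% of 35116 windows and 8.77% of 27305 symbols held it. The stretches are shown because they are the E-boxes of the network within its own promoters, with the motif in capitals, 5′ to 3′ on the strand of the gene.
MXD4, chr4:2262312-2262359, minus strand: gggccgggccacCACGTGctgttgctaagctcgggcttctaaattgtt
MNT, chr17:2401218-2401283, minus strand: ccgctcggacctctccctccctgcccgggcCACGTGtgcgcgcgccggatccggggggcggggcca
MLX, chr17:42567020-42567085, plus strand: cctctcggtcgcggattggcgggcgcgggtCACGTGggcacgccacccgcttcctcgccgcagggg
The motif lies 238 bases before the start in MXD4, 193 in MNT and 50 in MLX. With the combined treatment MXD4 and MNT were higher than with vehicle and MLX was lower, so the 3 genes that share the motif did not share a direction. A match describes these letters in this window and not a bound site.

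Genes known to be raised by MYC were given as a list of 32, of which 31 passed the filter. Against vehicle 25 of the 31 were lower with the combined treatment and 6 higher, beside 36.4% of all genes that were lower. Downward 4 passed the threshold, beside the 1.51% of all genes given above, and 0 upward, and the median was -0.72 beside 0.13 for all genes. Against histidine the median was -0.67 and against 6-MP -0.70. With histidine alone it was -0.037 and with 6-MP alone -0.0061. The list was written with earlier results of these data known, and its members are described by count only.

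The nucleolar and ribosome assembly genes lay lowest among these targets, with 11 of 12 lower against vehicle and a median of -0.94. NCL, the nucleolin of rRNA maturation, was at 197.3, 189.8, 199.4 and 90.6 FPKM with vehicle, histidine, 6-MP and the combined treatment. DKC1, the pseudouridine synthase of rRNA and telomerase RNA, was at 55.8, 55.0, 54.3 and 27.1 FPKM. For WDR43, a factor of small subunit assembly, the values were 41.6, 39.6, 43.4 and 19.4 FPKM, and for RRP12, which serves export of ribosomal subunits, 7.12, 6.06, 6.89 and 3.0 FPKM. These 4 genes are named because they passed the threshold with the combined treatment, where the differences against vehicle were -1.12, -1.01, -1.06 and -1.02 on the log2 scale. With histidine alone RRP12 was below vehicle by -0.20 and NCL by -0.056, both with counting intervals below 0. NPM1, the abundant nucleolar chaperone, was at 198.7, 189.2, 202.8 and 130.8 FPKM, a smaller difference of -0.60. FBL, the fibrillarin that methylates rRNA and the 1 gene of the list that was higher, had unlike levels among the first 3 libraries, at 22.6, 32.9 and 17.6 FPKM, beside 31.7 with the combined treatment. It is named after its values were seen.

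Among 10 metabolic targets 7 were lower and 3 higher against vehicle, none past the threshold, with a median of -0.45. ODC1, the first enzyme of polyamine synthesis, was at 117.3, 121.5, 134.6 and 87.6 FPKM, so that 6-MP alone had the highest and the combined treatment the lowest level. SHMT2, the mitochondrial serine hydroxymethyltransferase of folate metabolism, went the other way, at 55.8, 55.9, 53.4 and 71.4 FPKM. IMPDH2, the enzyme that makes guanine nucleotides and also converts a metabolite of 6-MP, was likewise higher with the combined treatment, at 28.3, 27.6, 30.3 and 46.8 FPKM, and LDHA, lactate dehydrogenase, was at 9.95, 7.13, 7.999 and 9.95 FPKM. Both are named after their values were seen. Of 9 tested targets in the cell cycle, translation and folding, 7 were lower and 2 higher, none past the threshold, with a median of -0.48. EIF4G1, the scaffold of the cap-binding complex, was at 86.0, 86.2, 85.0 and 51.9 FPKM, and HSPD1, a mitochondrial chaperonin, at 90.5, 85.0, 92.3 and 64.6 FPKM.

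Windows were at hand for 25 of the 32 raised targets, and 16 of these, 64%, held CACGTG. The share was 4 of 9 for the nucleolar list, and 6 of 8 for the metabolic list and for the list of cell cycle, translation and folding. The targets became known partly through this motif, so the share is a description of the list. Direction was part of the choice of the stretches below, so they do not stand for all targets with the motif. LDHA, also named above, holds it 185 and 87 bases before its start and was at 9.95 FPKM both with vehicle and with the combined treatment. The stretches of ODC1 and HSPD1 and the nearer of the pair in EIF4G1 are shown in the same notation as before. These are targets named above that carry the motif before their start and were lower with the combined treatment.
ODC1, chr2:10448013-10448071, minus strand: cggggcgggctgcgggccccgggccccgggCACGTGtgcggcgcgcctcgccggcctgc
EIF4G1, chr3:184314509-184314574, plus strand: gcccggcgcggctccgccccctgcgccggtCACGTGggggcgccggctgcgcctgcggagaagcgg
HSPD1, chr2:197500327-197500392, minus strand: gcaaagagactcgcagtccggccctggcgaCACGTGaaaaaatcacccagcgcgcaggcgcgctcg
In ODC1 the motif lies 29 bases before the start, in EIF4G1 67 and in HSPD1 88. Their levels with the combined treatment were 0.746, 0.603 and 0.714 times vehicle, so none was as low as MYC itself at 0.251 times.

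Of the 5 genes listed as lowered by MYC, 4 had a row and 3 passed the filter, and CDKN2B was not analysed here. All 3 were higher with the combined treatment than with vehicle, beside 36.4% of all genes that were lower. Of the 3, 2 passed the threshold upward, where 5.01% of all genes did. CDKN1A, the p21 inhibitor of cyclin-dependent kinases, was at 48.6, 42.8, 41.4 and 155.0 FPKM with vehicle, histidine, 6-MP and the combined treatment, a difference of 1.65 on the log2 scale against vehicle. GADD45A, a stress gene of growth arrest, was at 12.2, 11.6, 11.6 and 39.3 FPKM, a difference of 1.61. Both genes are also known as targets of p53. CDKN1B, the p27 inhibitor, was at 10.7, 9.59, 9.63 and 11.7 FPKM. Its difference against vehicle was 0.11, under the median of 0.13 for all genes. NDRG1, a stress gene below the filter, was at 0.285, 0.247, 0.288 and 1.03 FPKM. Both CDKN1B and NDRG1 are named after their values were seen. None of the 3 windows at hand for this list held CACGTG.

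The coactivators and other proteins that MYC binds had a median of -0.16 against vehicle, beside 0.13 for all genes. Of 8 tested, 6 were lower, beside 36.4% of all genes. RUVBL1, an ATPase of chromatin remodelling complexes, was at 24.3, 24.2, 23.2 and 11.3 FPKM and passed the threshold downward, at -1.04. Downward calls made up 1.51% of all genes, and 1 call among 8 genes was not read as differing from that background. Its partner RUVBL2 was at 70.6, 71.0, 69.1 and 43.7 FPKM, also lowest with the combined treatment, at -0.68. WDR5, the histone reader that anchors MYC on chromatin, was at 39.9, 43.8, 41.4 and 35.8 FPKM. The 6 corepressors of MXD and MNT proteins had a median of -0.095 and none passed the threshold, which 6.53% of all genes did in either direction. HDAC1 was at 76.8, 75.8, 69.6 and 78.4 FPKM and HDAC2 at 19.4, 17.4, 20.2 and 14.8 FPKM. The HDAC1 interval against vehicle included 0, and HDAC2 was lower, at -0.37. The partners of MGA in its Polycomb complex, 8 of 9 tested, had a median of 0.018, 4 higher and 4 lower, and none passed. TFDP1, the dimer partner of E2F proteins, was at 46.5, 47.7, 44.6 and 41.7 FPKM and CBX3, a heterochromatin protein, at 61.8, 56.2, 60.2 and 52.8 FPKM.

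Genes known to control MYC transcription, RNA or protein had a median of -0.22 against vehicle, beside 0.13 for all genes. Of 13 tested, 9 were lower, beside 36.4% of all genes, and 4 were higher, by up to 0.75. AURKA, FUBP1 and IGF2BP1 are named for passing the threshold or for their level, and all are among the lower ones. AURKA, a mitotic kinase that stabilises MYC proteins, was at 44.3, 43.5, 42.7 and 16.1 FPKM, a difference of -1.41 against vehicle. It was the 1 gene of the list past the threshold, beside 1.51% of all genes that passed downward. FUBP1, which binds upstream of MYC, was at 65.3, 65.6, 64.9 and 53.2 FPKM, and IGF2BP1, which protects MYC RNA from decay, at 56.1, 56.0, 55.7 and 47.7 FPKM. Both were lower with the combined treatment, by -0.29 and -0.23. PVT1, the noncoding RNA downstream of MYC, was at 0.537, 0.634, 0.546 and 1.25 FPKM on 192, 245, 209 and 401 reads. It was below the filter, and it was highest in the library where MYC was lowest.

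The 3 differences from vehicle were also used to find the protein-coding genes nearest in pattern, among 4374 with a mean of at least 10 FPKM, by Euclidean distance. For MYC these were CDC20 at a distance of 0.19, PLK1 at 0.22, FASN at 0.35, ACTB at 0.42 and INSIG1 at 0.45. CDC20 and PLK1 act in mitosis, FASN and INSIG1 in lipid synthesis and its control, and ACTB is cytoplasmic actin. CDC20 was at 156.6, 148.0, 143.9 and 35.3 FPKM with vehicle, histidine, 6-MP and the combined treatment. For MXD4 the nearest were TMEM106C at 0.015, FIGNL1 at 0.033, LRP10 and TMEM219 both at 0.036 and CNN2 at 0.041. TMEM106C was at 54.6, 55.1, 56.0 and 88.5 FPKM. The distances were shorter for MXD4 than for MYC, whose size of difference few genes shared.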

How the data were processed

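The analysis covers 4 RNA-seq libraries of the resistant line Reh-6-MPR, 1 for each treatment, with groups taken from the sample labels. Libraries were made with a stranded poly(A) kit. The authors deposited FPKM values per gene with symbols and GRCh38 positions. The submitters' processing notes name Trimmomatic, HISAT2, Cufflinks and HTSeq, without versions or roles. The authors' DESeq2 analysis was not repeated, for want of replicates. FPKM depends on the most abundant genes of a library and on the gene lengths used.

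The reads behind the values were recovered from their steps, and came out whole in all libraries for 29830 of 29833 genes. Where the shortest length that fits was a fraction of the GENCODE 29 exon length, it was multiplied by up to 6 if it then came within 5% of that length, and the recovered reads summed to 99.73% to 99.74% of the totals. Intervals at 95% were Poisson for a level, Clopper-Pearson for a ratio and, for a departure, from the summed inverse reads on the log scale, and the floor was 3 reads. Differences were taken on log2(FPKM + 1) for 12750 genes whose mean FPKM reached 1, with a threshold of 1. No test across treatments was possible.

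The members and gene lists were chosen with earlier results of these data known. Named genes are all members, the genes of each list that passed the threshold with the combined treatment or had the 2 highest mean levels, genes overlapping a member, and the 5 genes nearest to the member with the lowest and with the highest difference. Others are marked, and 1 listed marker is not reported here. Alternatives were a pseudocount of 0.1, no filter, a mean FPKM of at least 5, median-ratio scaling, TPM, a 1.5-fold limit and recovered reads without a pseudocount. Median-ratio scaling over genes past the filter was added after seeing the data. Scripts were tested on simulated data. Software was matplotlib 3.10.9, scipy 1.17.1, pandas 2.3.3 and numpy 2.4.6 under Python 3.11.15.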

Additional observations from a re-analysis of the deposited data

Results flagged for a closer look

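In 33 of the 55 genes that are named above and passed the filter, 1 agent went one way without the other agent and the opposite way with it, as judged from single libraries. These differences in direction were not tested, and many of the single-agent values lie near 0. The share over all genes was not counted, and some of the named genes were chosen for their difference with the combined treatment. The count was therefore not read as a result about these genes. Among the members the departure from additivity on the log2 scale was 0.59 for MXD1, 0.19 for MAX and 0.0805 for MGA, and the counting interval of MGA included 0. Among the targets raised by MYC it was -1.07 for NCL, -1.05 for WDR43, -0.70 for EIF4G1, -0.66 for ODC1, -0.56 for NPM1, -0.42 for HSPD1, 0.41 for SHMT2, 0.64 for IMPDH2 and 0.71 for LDHA. CDKN1A, GADD45A and CDKN1B had 2.06, 1.74 and 0.41, with each agent alone slightly below vehicle. TXNIP had 0.30. Among the cofactors and regulators of MYC it was -0.66 for RUVBL2, -0.33 for WDR5, 0.19 for HDAC1, -0.28 for HDAC2, -0.13 for TFDP1 and -0.29 for FUBP1. Among the markers it was -0.35 for DNTT, 0.48 for MPO and 2.31 for ITGAM. Genes overlapping a member had -0.78 for PRELID1, 0.50 for SNRNP27, 0.94 for PSMC3IP and 0.33 for FNTB. Of the genes nearest in pattern, PLK1 had -2.03, FASN -1.55, INSIG1 -1.67 and FIGNL1 0.69.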

How the results depend on the processing

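MYC was past the threshold in each comparison of the combined treatment under all 8 alternatives, and 0 members passed with a single agent. At 1.5-fold the members past the limit were 3, 2 and 3 against vehicle, histidine and 6-MP. Of 50 member differences, 21 moved by more than counting error under median-ratio scaling and 12 under that scaling over genes past the filter, and 0 under TPM, a pseudocount of 0.1 or recovered reads. No called value changed sign. In the comparisons of the combined treatment MAX and MGA changed sign under median-ratio scaling, and MGA, at -0.092 against vehicle, also under the added scaling. Against vehicle, values near 0 of a single agent also changed sign, with MAX, MXD4 and MXI1 for histidine and MXD3 for 6-MP under median-ratio scaling, the same without MXI1 under the added one, and MXD1 and MLX for histidine under TPM.

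Over all genes, calls against vehicle with histidine, 6-MP and the combined treatment, and for the combined treatment against histidine and 6-MP, numbered 170, 151, 832, 707 and 767 of 12750 tested. They became 389, 389, 1513, 1278 and 1397 with a pseudocount of 0.1, and 460, 455, 2710, 2468 and 2586 at 1.5-fold, of the same 12750. Without a filter they were 374, 344, 1245, 1119 and 1172 of 29833, and at a mean of 5 FPKM 21, 17, 303, 264 and 269 of 7369. With TPM they were 1159, 1162, 3106, 2819 and 2902 of 17949. TPM values are larger than FPKM values here, with the filter and pseudocount still at 1, so those calls do not reflect scaling alone. With reads they were 361, 361, 1529, 1317 and 1399 of 12660 to 12681. Median-ratio scaling altered the split of higher and lower calls of the combined treatment. Against vehicle 639 and 193 became 393 and 340, against histidine 529 and 178 became 346 and 294, and against 6-MP 614 and 153 became 359 and 279. The added scaling gave 462 and 275, 403 and 247, and 433 and 225. The cause was not tested.

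No paired analysis was possible because of the single library per treatment, and leaving out replicates did not apply. Depth limits MYCN, MYCL and MLXIPL most, with under 50 reads each in every library.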
